A study of Cricetulus griseus with 40 samples.

Results

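The kinesin family of Chinese hamster was followed through a batch culture of CHO-S cells, with its motors of cell division set beside its motors of cargo transport. Members were all genes whose symbol is Kif followed by a digit. The reference table gave 36 such genes, and 22 of them reached at least 1 FPKM in 4 or more of the 40 libraries and were described. FPKM scales a gene's fragments to transcript length and library size, so levels of different genes can be set side by side. By textbook role, 10 of the 22 were mitotic motors (of 11 found) and 8 were transport motors (of 12 found). The other 4 had roles in cilia, signalling or microtubule dynamics (of 13 found). Among the symbols looked for, Kif11 (mitotic) and Kif1b (transport) were not found, so the counts and sums of these classes leave them out.

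CHO-S, derived from hamster ovary, grows in suspension and serves in making recombinant proteins. The cultures were unfed shake flasks in a chemically defined medium with glutamine, an anti-clumping agent and antibiotics, and no other treatment or engineered gene is named. RNA was sampled at 10 times 12 h apart, the first at 72 h and the last at 180 h of culture, and each time has 4 libraries. No label ties a library to a culture, so p-values measure only how libraries of the same time differ, which may be partly technical.

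Kinesins are motor proteins that turn the energy of ATP into movement along microtubules or into the taking apart of microtubule ends. A first set builds the mitotic spindle, moves chromosomes and completes the division of the cell, and many of its genes are known to be expressed mostly in dividing cells. A second set carries vesicles, mitochondria and other cargo through the cytoplasm in dividing and resting cells alike.

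Per library, FPKM added up to 463992 to 575241, and 10904 to 11537 genes were at 1 FPKM or more. Relative depth, read from the steps between low values, ran from 0.807 to 1.21, and absolute depth is unknown. Vim and Fn1, genes of mesenchymal-type cells, lay between 472 and 874 FPKM and between 105 and 318 FPKM. Of 6 neuronal markers 4 were listed at 0 in every library and the summed list stayed between 0.104 and 0.263 FPKM at 72 h and between 0.156 and 0.32 FPKM at 180 h. Of 6 markers of multiciliated cells 2 were listed at 0 throughout (sums of 0.971 to 1.23 FPKM at 72 h and 0.876 to 1.5 FPKM at 180 h, nearly all of it Ccdc39). Both leukocyte markers found were listed at 0, and 3 male germ cell markers summed to between 1.65 and 1.99 FPKM at 72 h and between 1.28 and 2.24 FPKM at 180 h, nearly all of it Ddx4.

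The 14 kinesins below the threshold included some known from neurons, cilia and testis, whereas Kif3a, Kif3b and Kif7, which also act in cilia, were kept. Kif2b, Kif5c, Kif6, Kif12, Kif19 and Kif25 were listed at 0 in all 40 libraries, which in files without counts can also be a failed estimate. The axonal motor Kif1a, the dendritic motor Kif17 and the neuronal Kif5a reached at most 0.0140, 0.0820 and 0.282 FPKM. Kif21b, Kif26a, Kif26b and Kif27 stayed at or below 0.146 FPKM. The member just outside the threshold was Kif9, with 0.338 to 0.961 FPKM, and the member just inside was Kif24, which reached 1 FPKM in 11 libraries, all of them from 72 h to 96 h. Kif24 therefore entered through the times at which it was high.

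All 10 mitotic kinesins fell between 72 h and 180 h, to between 11.1% (Kif15) and 26.2% (Kif18a) of their 72 h means. Changes were tested across 12259 genes with limma on log2(FPKM + 1), with a threshold of 0.05 on p-values adjusted by Benjamini-Hochberg over all of them. Among all genes tested 33.5% were lower at 180 h by this test, and the median log2 change was -0.10 against -2.39 for the mitotic kinesins. For 9 of the 10 the 180 h mean lay under 25% of the 72 h mean, which held for 2.22% of all genes tested. The 72 h and 180 h libraries did not overlap for any of the 10, against 30.8% of all genes with no overlap in this direction. In bulk RNA, fewer dividing cells and less RNA per dividing cell cannot be told apart. Mki67 and Top2a, general markers of proliferating cells, moved the same way, from means of 73.9 to 6.85 FPKM and of 247 to 26.4 FPKM, and their part in the result was not tested.

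**Figure D1:**
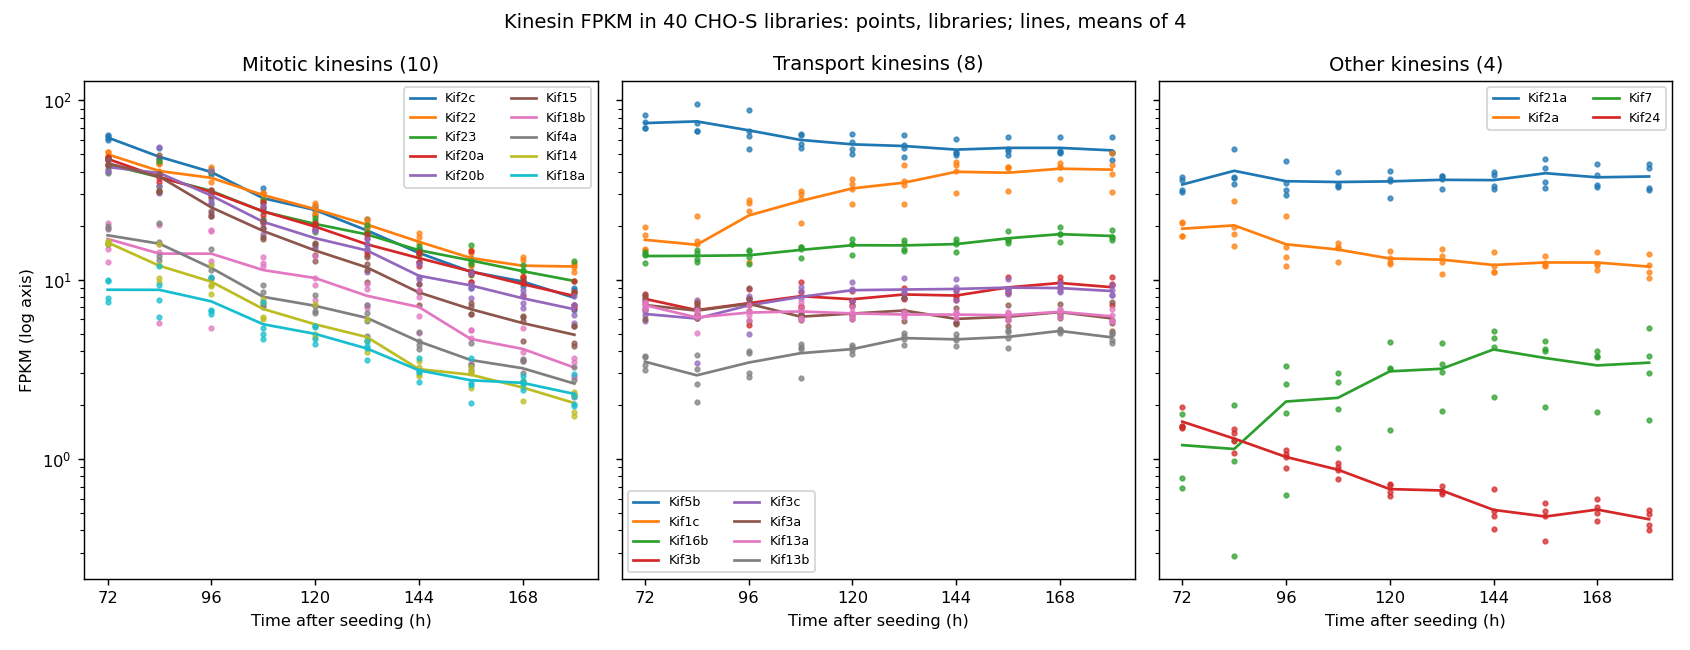
FPKM (log axis) of the 22 kinesins against time after seeding, with 1 point per library and lines through the means of 4 libraries. The lines of the 10 mitotic motors go down side by side, whereas among transport motors Kif5b drifts from 74.7 to 52.6 FPKM and Kif1c climbs from 16.7 to 41.1 FPKM.

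On the log2(FPKM + 1) scale, which understates changes of low genes, Kif15 and Kif2c had the largest falls of the kinesins described. In FPKM Kif14 kept a slightly smaller share of its 72 h mean (12.7%) than Kif2c (12.8%). Kif15, a plus-end motor that helps keep spindle poles apart, was at 43.9, 47.0, 43.6 and 43.9 FPKM in the 4 libraries of 72 h and at 4.27, 4.42, 5.52 and 5.52 FPKM at 180 h (log2 change -2.95 ± 0.13 SE, adjusted p = 2.60e-19). The lowest library of 72 h was thus far above the highest of 180 h. Kif2c, or MCAK, which takes apart microtubule ends at centromeres and so helps correct faulty attachments, was at 64.0, 63.0, 61.4 and 59.7 FPKM at 72 h and at 7.24, 6.73, 8.96 and 8.77 FPKM at 180 h (-2.83 ± 0.10, adjusted p = 1.44e-21). Both groups of libraries were narrow and far apart.

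The motors that move chromosomes fell by different amounts. The chromokinesin Kif22, which binds chromosome arms and pushes them away from the poles, was at 48.7, 48.0, 51.4 and 51.8 FPKM at 72 h and at 11.1, 11.8, 12.1 and 12.4 FPKM at 180 h (-1.99 ± 0.10, adjusted p = 1.72e-17). The other chromokinesin, Kif4a, which also shapes condensed chromosomes and the central spindle, went from 17.7 ± 2.18 to 2.63 ± 0.49 FPKM (mean ± SD, n = 4; -2.36 ± 0.13). Kif18a, which damps chromosome movements at the metaphase plate, had the smallest fall of the class, from 8.79 ± 1.27 to 2.31 ± 0.47 FPKM (-1.57 ± 0.15, adjusted p = 2.16e-10). Its relative Kif18b, which shortens astral microtubules, was more variable at 72 h, with libraries at 14.7, 12.5, 19.5 and 20.8 FPKM against 3.49, 2.90, 3.66 and 2.88 FPKM at 180 h (-2.06 ± 0.28, adjusted p = 2.75e-07). These 4 genes had no overlapping libraries between the times, and the error of Kif18b was the widest of the class.

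The motors of the central spindle and of cytokinesis, the final splitting of the cell, fell alongside. Kif23, or MKLP1, a subunit of the centralspindlin complex, was at 47.6, 47.6, 39.2 and 41.5 FPKM at 72 h and at 8.40, 8.50, 9.80 and 12.6 FPKM at 180 h (-2.07 ± 0.13, adjusted p = 4.53e-15). Kif20a, or MKLP2, which brings the chromosomal passenger complex to the central spindle, was at 48.0, 47.6, 46.3 and 46.7 FPKM and then at 7.19, 6.92, 8.54 and 9.80 FPKM (-2.41 ± 0.10, adjusted p = 2.74e-19). At 72 h the libraries of Kif20a lay within 2 FPKM of each other, the narrower range of these 2 genes. Its relative Kif20b, which acts late in cytokinesis, was at 43.5, 46.3, 39.9 and 40.2 FPKM and then at 5.71, 6.32, 7.19 and 8.12 FPKM (-2.48 ± 0.15, adjusted p = 3.41e-15). Kif14, which recruits citron kinase to the midbody, went from 16.1 ± 0.32 to 2.05 ± 0.32 FPKM (-2.50 ± 0.13).

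**Figure D2:**
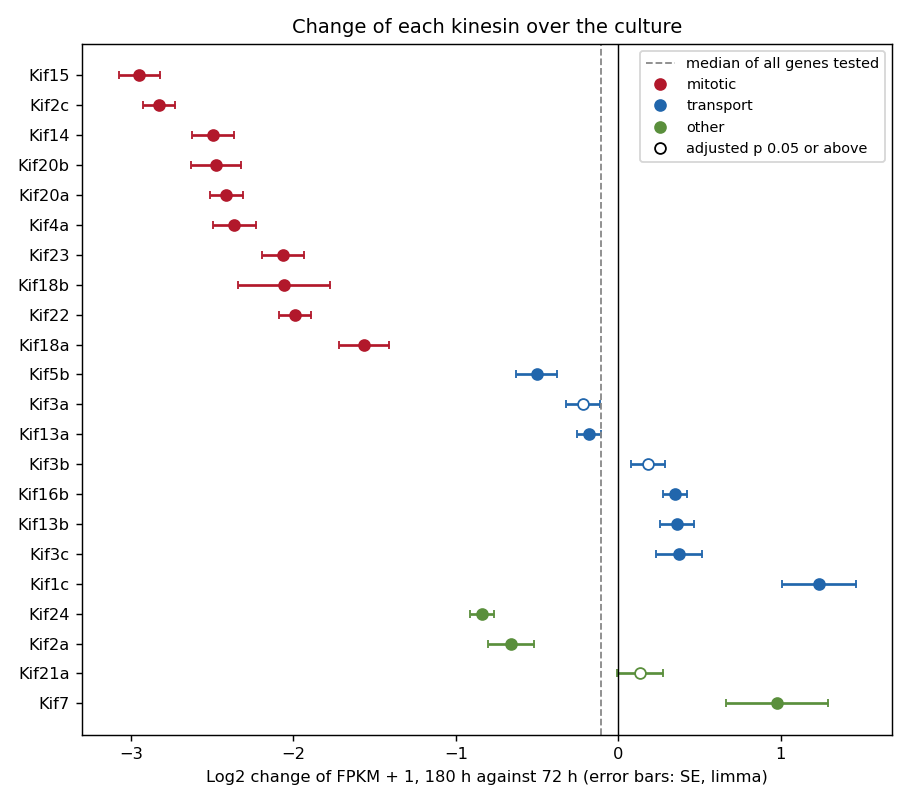
Log2 change of FPKM + 1 from 72 h to 180 h for each of the 22 kinesins with its SE (limma, 4 libraries a time), filled where the adjusted p was below 0.05, and the median of all genes tested as a dashed line at -0.10. The 10 mitotic motors lie between -2.95 and -1.57, and no transport motor lies below -0.50 or above 1.24.

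The fall was spread over the whole culture. Every mitotic kinesin had a lower mean at each of the 9 steps of 12 h, a pattern found for 2.43% of all genes tested. Some single steps were far smaller than the spread of libraries, as for Kif18b with 13.97 ± 6.04 FPKM at 84 h and 13.96 ± 6.40 FPKM at 96 h. In order, the means of Kif2c were 62.0, 48.4, 39.8, 28.5, 24.5, 18.8, 14.1, 11.1, 9.77 and 7.92 FPKM, so that its level dropped at each sampling. The mean first lay under 50% of its 72 h value at 108 h for Kif2c, Kif15, Kif20b, Kif4a and Kif14, at 120 h for Kif20a, Kif22 and Kif23, and at 132 h for Kif18a and Kif18b. Some means lay close to this cut: at 108 h Kif20b stood at 49.5% and Kif20a at 51.0%, and at 120 h Kif22 at 49.5%. The order of such genes is therefore not resolved. Kif18a still stood at 99.8% of its 72 h mean at 84 h, when Kif2c stood at 78.0%. The 84 h libraries of Kif18a were at 6.21, 7.71, 9.28 and 11.9 FPKM, so that its 84 h mean leans on replicate 4. For Kif2c, Kif20a and Kif22 all 4 libraries of 84 h already lay below all 4 of 72 h. The same held for Kif13a and Kif24 outside the class. The share among all genes was not counted, so this cannot be read as a trait of mitotic motors.

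In windows of 36 h, mitotic members fell in each. From 72 h to 108 h 9 of 10 were lower, against 11.2% of all genes tested, with a median log2 change of -0.97 against 0.01 for all genes. Kif15 (-1.22 ± 0.13), Kif14 (-1.13 ± 0.13) and Kif2c (-1.11 ± 0.10) fell most on the log2(FPKM + 1) scale, while in FPKM Kif4a stood at 45.4% and Kif2c at 45.9% of the 72 h mean. The exception was Kif18b (-0.54 ± 0.28, adjusted p = 0.193).

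From 108 h to 144 h again 9 of 10 were lower, against 12.7% of all genes tested, with a median of -0.82 against -0.06. Kif15 stood at -1.05 ± 0.13, Kif2c at -0.96 ± 0.10 and Kif20b at -0.93 ± 0.15. Kif18b again missed the threshold (-0.61 ± 0.28, adjusted p = 0.151).

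From 144 h to 180 h 6 of 10 were lower, against 0.914% of all genes tested, with a median of -0.59 against -0.05. They were Kif2c (-0.77 ± 0.10, adjusted p = 7.30e-06), Kif15 (-0.68 ± 0.13), Kif20a (-0.65 ± 0.10), Kif4a (-0.61 ± 0.13), Kif23 (-0.54 ± 0.13) and Kif22 (-0.42 ± 0.10). Kif18b (-0.91 ± 0.28, adjusted p = 0.139), Kif20b (-0.56 ± 0.15, adjusted p = 0.0622), Kif14 (-0.46 ± 0.13, adjusted p = 0.0696) and Kif18a (-0.32 ± 0.15, adjusted p = 0.577) did not pass. This count depended on single libraries: without replicate 1 of 180 h it was 3 (Kif15, Kif20a and Kif2c), and in a fit of the 144 h and 180 h libraries alone it was 2 (Kif15 and Kif2c). With array weights, which give less weight to libraries far from their group, it was 10. No mitotic member was higher in any window by limma, also at an unadjusted p below 0.05 (0 of 10 each). Whether the falls of the windows differ in size was not tested.

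**Figure D3:**
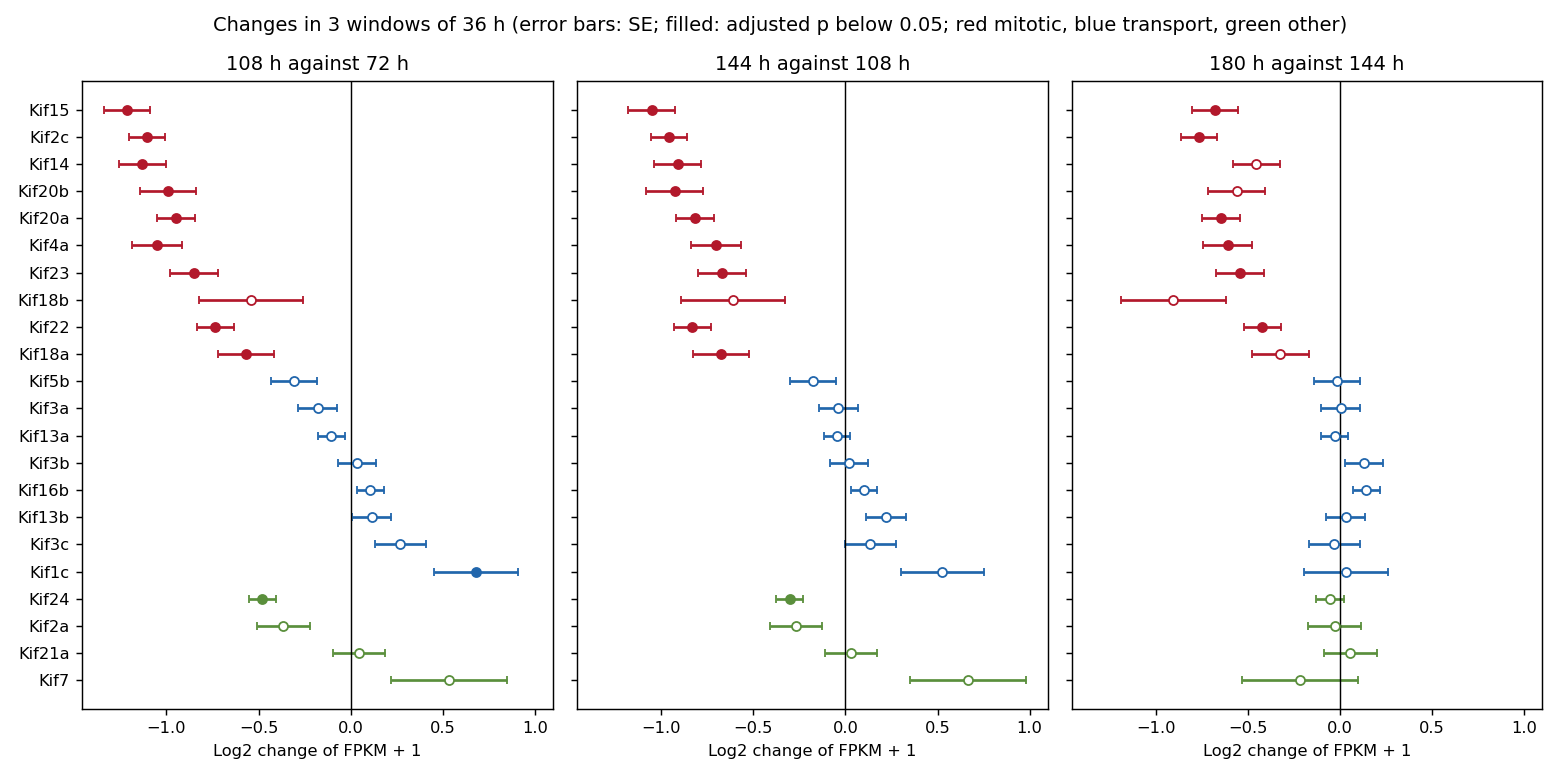
Log2 change of FPKM + 1 with SE for the 22 kinesins in the windows 72 h to 108 h, 108 h to 144 h and 144 h to 180 h, filled where the adjusted p was below 0.05. Mitotic motors lie left of 0 in all 3 panels, with medians of -0.97, -0.82 and -0.59, and in the last panel no transport or other kinesin is filled.

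The transport kinesins moved little by comparison and in both directions. Of 8 members 4 rose and 2 fell from 72 h to 180 h, against 15.8% of all genes higher and 33.5% lower, with a median log2 change of 0.27. With median-ratio scaling, under which the median change of all genes was 0.04 in place of -0.10, 5 rose and 1 fell. The libraries of 4 transport motors did not overlap and were higher at 180 h, against 15.2% of all genes. Those of 1 were lower without overlap, against 30.8% of all genes, and 3 overlapped. No transport kinesin lay under 25% of its 72 h mean, and only 2.22% of all genes tested did, so this is no trait particular to the class.

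Kif5b, the conventional kinesin heavy chain found in most cells, which carries mitochondria and vesicles, had the highest level of the kinesins described at both ends. It was at 75.9, 82.7, 69.8 and 70.2 FPKM at 72 h and at 46.3, 51.4, 50.6 and 62.2 FPKM at 180 h. The libraries did not overlap, and the fall was 0.50 on the log2 scale (SE 0.12, adjusted p = 0.00106), to 70.4% of the 72 h mean. Its means were 60.1 FPKM at 108 h, 53.1 FPKM at 144 h and 52.6 FPKM at 180 h, and no window of 36 h passed by itself.

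Kif1c, a motor of long-range vesicle and mRNA transport, rose most of the class. It was at 14.6, 14.8, 19.6 and 17.7 FPKM at 72 h and at 51.1, 43.4, 39.0 and 30.7 FPKM at 180 h (1.24 ± 0.23, adjusted p = 2.76e-05), or 2.46 times the 72 h mean. All 4 later libraries were above all 4 earlier ones, although they spread widely. Its mean was 27.5 FPKM at 108 h, 39.9 FPKM at 144 h and 41.1 FPKM at 180 h. The rise from 72 h to 108 h passed (0.68 ± 0.23, adjusted p = 0.0318), but not without any 1 of replicates 1 and 2 of 72 h and replicates 1, 2 and 3 of 108 h. In that window Kif1c was the only transport member called, against 7.46% of all genes higher. In the last window its change was 0.03 ± 0.23.

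The other transport motors moved by less than 0.4 on the log2 scale. Kif16b, which moves early endosomes, was at 14.2, 13.8, 13.8 and 12.3 FPKM at 72 h and at 16.7, 17.2, 17.3 and 18.9 FPKM at 180 h (0.35 ± 0.07, adjusted p = 1.51e-04). Its libraries did not overlap, and it was higher at 180 h in every alternative that could be run. Kif13b, a motor for membrane receptors and signalling proteins, went from 3.49 ± 0.29 to 4.77 ± 0.30 FPKM (0.36 ± 0.11, adjusted p = 0.00529). Kif13a, which moves endosomes and recycling vesicles, went from 7.20 ± 0.34 to 6.25 ± 0.45 FPKM (-0.18 ± 0.07, adjusted p = 0.0365). The size of Kif13a's fall is near the shift of all genes, and with median-ratio scaling it was -0.03 (adjusted p = 0.728). The call of Kif13a was also lost without replicate 3 or 4 of 72 h and without replicate 1, 3 or 4 of 180 h (adjusted p = 0.0882, 0.0804, 0.0542, 0.0998 and 0.0903).

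The kinesin-2 motors, which drive transport into cilia and of vesicles, did not move as a unit. Kif3a, the partner shared by Kif3b and Kif3c, went from 7.22 ± 0.98 to 6.09 ± 0.99 FPKM (-0.22 ± 0.11, adjusted p = 0.0905). It passed without replicate 4 of 72 h (-0.29, adjusted p = 0.0317) or replicate 4 of 180 h (-0.31, adjusted p = 0.0189). Kif3b was at 8.28, 8.03, 7.61 and 7.35 FPKM and then at 9.48, 7.24, 9.33 and 10.3 FPKM (0.19 ± 0.10, adjusted p = 0.138). One low library, replicate 2 of 180 h, overlapped the 72 h range, and without it the change was 0.28 (adjusted p = 0.0291). Kif3c was at 5.89, 6.33, 6.67 and 6.87 FPKM and then at 9.29, 8.78, 8.27 and 8.23 FPKM (0.37 ± 0.14, adjusted p = 0.0264). The libraries of Kif3c did not overlap, yet its call was lost without replicate 1 or 2 of 72 h (adjusted p = 0.0725 and 0.0518) and without replicate 1 or 2 of 180 h (adjusted p = 0.0712 and 0.0518). Kif3b passed with median-ratio scaling (0.34, adjusted p = 0.00555).

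The 4 remaining kinesins went different ways, with 1 higher and 2 lower by the test, Kif24 included, against 15.8% of all genes higher and 33.5% lower. Kif2a, a relative of Kif2c that trims microtubules in interphase as well as at spindle poles, was at 20.8, 21.0, 17.6 and 17.6 FPKM at 72 h and at 10.3, 11.1, 12.1 and 13.9 FPKM at 180 h (-0.66 ± 0.14, adjusted p = 2.47e-04). It kept 61.5% of its 72 h mean, where Kif2c kept 12.8%. Kif24, which takes apart microtubules of the mother centriole and holds back cilium formation, was at 1.49, 1.53, 1.5 and 1.94 FPKM and then at 0.494, 0.403, 0.428 and 0.521 FPKM. Its 180 h mean was 28.6% of the 72 h mean. Since Kif24 passed the filter only through the times at which it was high, it had to differ, and its values are a description that supports no count.

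Kif7, a regulator of Hedgehog signalling at the tip of the cilium, rose from 1.20 ± 0.54 to 3.45 ± 1.55 FPKM (0.98 ± 0.31, adjusted p = 0.010). Its libraries were at 0.785, 0.692, 1.77 and 1.53 FPKM at 72 h and at 5.36, 3.77, 3.01 and 1.65 FPKM at 180 h. The groups overlapped, and the call was lost without replicate 1 of 180 h (0.78, adjusted p = 0.0567). Kif21a, which slows microtubule growth at the cell cortex, was at 31.7, 37.1, 30.7 and 36.1 FPKM and then at 32.4, 42.2, 31.6 and 44.2 FPKM (0.13 ± 0.14, adjusted p = 0.452). Its libraries overlapped, and it also missed the test over all 10 times (adjusted p = 0.898). Kif21a stands on 3 lines of each file, which were summed.

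Over all 10 times, 10 of 10 mitotic and 9 of 12 other kinesins (Kif24 among them) differed, against 49.9% of all genes tested. The 3 that did not pass were Kif3a (adjusted p = 0.421), Kif13a (adjusted p = 0.433) and Kif21a. Without replicate 2 of every time, 5 of the 12 passed (Kif1c, Kif2a, Kif13b, Kif16b and Kif24). In the window from 72 h to 108 h 1 of the 12 rose (Kif1c) and 1 was called lower, Kif24, which had entered the filter through its early values and so supports no count. From 108 h to 144 h 1 was called lower (again Kif24) and 0 rose, against 3.03% of all genes higher, with 3 higher at an unadjusted p below 0.05 (Kif1c, Kif7 and Kif13b). With median-ratio scaling Kif16b also rose in that window. From 144 h to 180 h 0 of the 12 passed in either direction, against 0.473% of all genes higher, and 0 at an unadjusted p below 0.05.

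The summed level of the mitotic kinesins started above that of the transport kinesins and ended below it. The 10 mitotic motors summed to 350 ± 8.36 FPKM at 72 h and 59.7 ± 7.51 FPKM at 180 h (mean ± SD, n = 4), and the 8 transport motors to 137 ± 5.11 and 146 ± 3.68 FPKM. Within a library, where scaling between libraries plays no part, the ratio of the first to the second was 2.60, 2.48, 2.51 and 2.62 at 72 h and 0.357, 0.370, 0.446 and 0.464 at 180 h. At 120 h it was 1.08 ± 0.06 and at 132 h 0.868 ± 0.095, and the 4 libraries of 132 h all lay below 1. Where the crossing falls depends on 1 gene of each class: without Kif2c and Kif5b, the highest members, the ratio was 1.22 ± 0.20 at 132 h and 0.905 ± 0.079 at 144 h, when replicate 1 still lay above 1 (1.02). The mitotic share of all summed kinesin FPKM was 64.4 ± 0.58% at 72 h and 23.0 ± 2.22% at 180 h. Without these 2 genes the ratio was 4.62 at 72 h and 0.560 at 180 h. These sums are descriptions over chosen genes, without Kif11 and Kif1b, and carry no test.

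**Figure D4:**
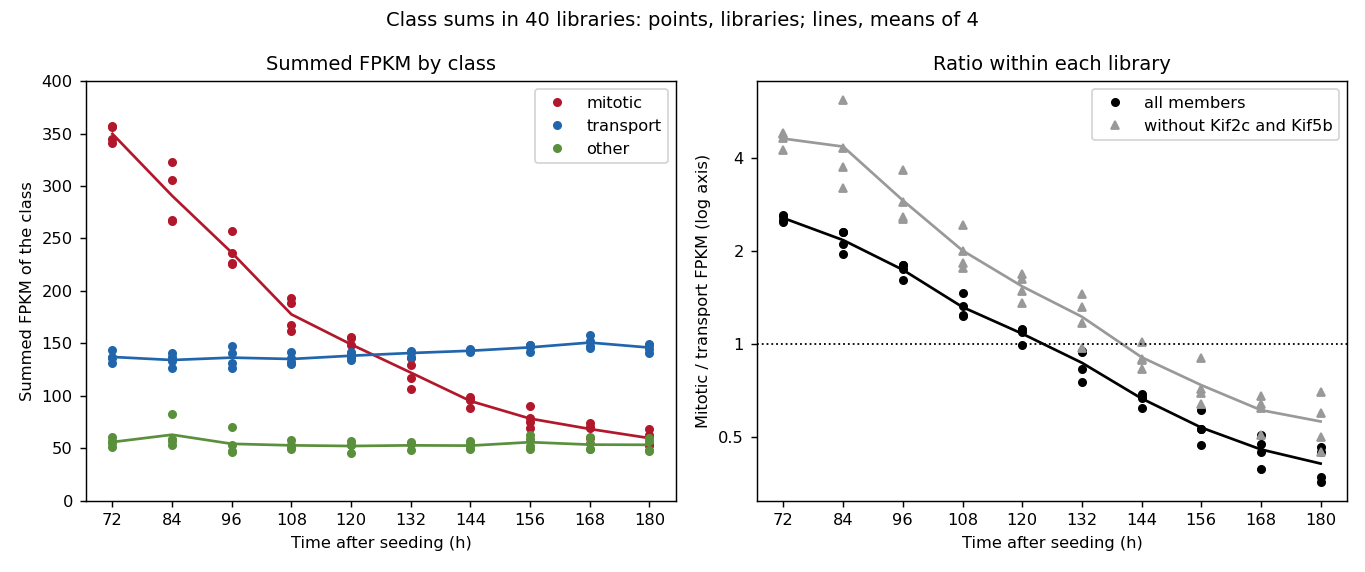
Left, summed FPKM of the mitotic, transport and other kinesins in each library against time, and right, the ratio of mitotic to transport sums in each library (log axis) with all members and without Kif2c and Kif5b; lines join means of 4 libraries. The mitotic sum comes down from 350 to 59.7 FPKM while the transport sum stays between means of 134 and 151 FPKM, and the mean ratio passes 1 between 120 h and 132 h with all members but between 132 h and 144 h without Kif2c and Kif5b.

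The ranking of single kinesins turned over accordingly. At 72 h Kif5b (74.7 ± 6.06 FPKM) was followed by Kif2c (62.0 ± 1.89 FPKM), and then by Kif22, Kif20a, Kif15, Kif23 and Kif20b between 49.99 and 42.5 FPKM, where each overlapped the next. Kif5b and Kif2c were each set apart from the next gene with no overlap of libraries. At 180 h the 4 highest were Kif5b, Kif1c (41.1 ± 8.55 FPKM), Kif21a (37.6 ± 6.52 FPKM) and Kif16b (17.5 ± 0.95 FPKM). Kif5b overlapped Kif1c and Kif1c overlapped Kif21a, and the highest mitotic motor was then Kif22 at 11.8 ± 0.57 FPKM. Kif2c stood in place 11 and Kif15 in place 15 of 22.

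Among libraries of the same time the kinesins varied along a shared axis, with members of each class on both sides. This axis, the first component of all tested genes after each time's mean was removed, held 52.4% of the variance within times, and replicate 1 of 96 h (-2.65 SD) and replicate 4 of 84 h (-2.38 SD) lay farthest out. Kif1c (r = 0.97 with the axis over 40 libraries), Kif7 (0.97), Kif18b (0.92) and Kif3c (0.88) moved up along it. Kif5b (-0.95), Kif2a (-0.95), Kif20b (-0.91), Kif4a (-0.89), Kif3a (-0.86) and Kif23 (-0.85) moved down. Of the mitotic motors only Kif18b and Kif22 (0.51) moved up, and all others moved down, Kif2c least closely (-0.48). Per SD of the axis, Kif7 moved by 0.39, Kif18b by 0.33, Kif1c by 0.28, Kif20b by -0.18 and Kif5b by -0.15 on the log2 scale. Along the axis replicate 1 changed sign from each time to the next, from -0.73 SD at 72 h to 1.02 SD at 180 h, and replicate 4 did so in the opposite sense, from 0.64 SD to -1.25 SD. The replicate number therefore carries a structure that turns round between successive times, and for Kif7 and Kif1c replicates 1 and 2 lay below replicates 3 and 4 at 72 h but above them at 180 h. The part of the axis in the change over time was not tested.

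The transport motors Kif1c and Kif5b, with opposite changes over the culture, also deviated in opposite directions within times (r = -0.91). Kif18b deviated against 8 of the other 9 mitotic motors, from r = -0.79 with Kif20b to r = -0.22 with Kif2c, and with Kif22 alone in the same direction (r = 0.68). Kif22 also deviated against Kif20b, Kif14, Kif18a, Kif4a, Kif23 and Kif15, but weakly, from r = -0.30 with Kif20b to r = -0.12 with Kif15. The 45 pairs of mitotic kinesins had a median r of 0.63, with 31 pairs above 0, and the 28 pairs of transport kinesins a median of -0.03, with 14 above 0. These correlations are descriptions over 40 libraries.

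**Figure D5:**
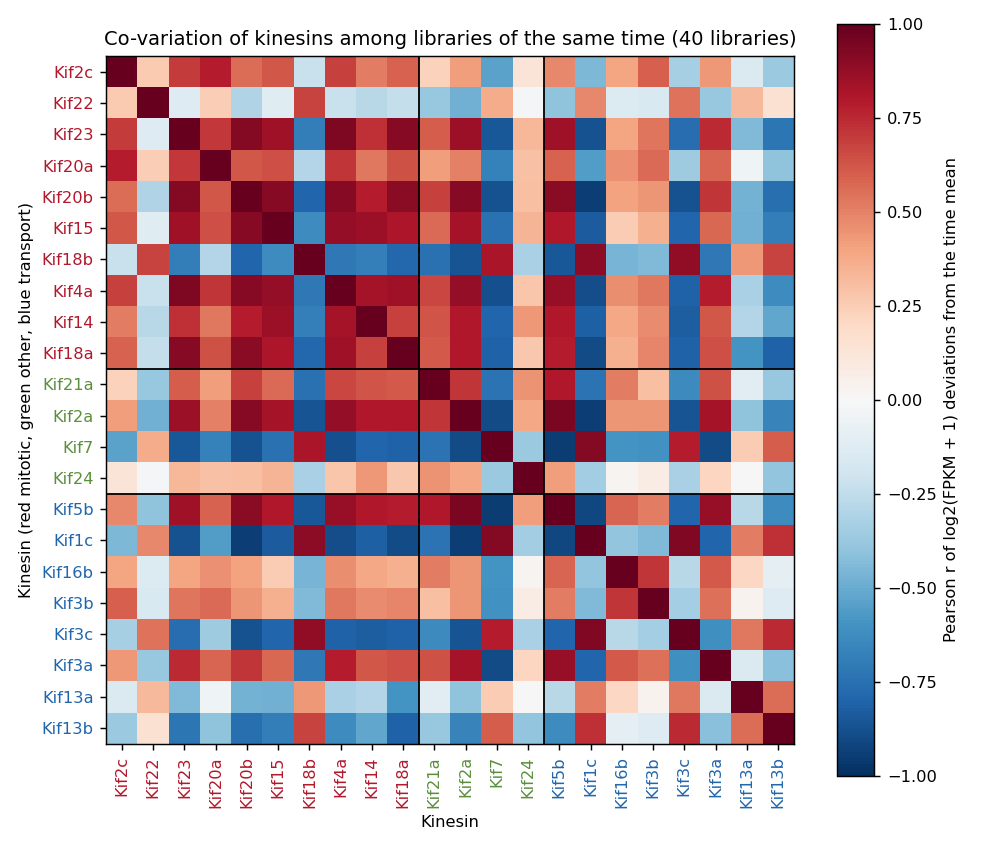
Pearson r between each pair of the 22 kinesins, computed on log2(FPKM + 1) deviations from the mean of the 4 libraries of a time, over 40 libraries. Most mitotic pairs are red, with a median of 0.63, but Kif18b is blue against 8 mitotic motors, as low as -0.79, and Kif1c is blue against Kif5b at -0.91. Kif22 also lies below 0 against several mitotic motors, as low as -0.30.

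Genes that work with kinesins were read from lists chosen by role, with earlier results of these data known. Of 26 measured spindle and cytokinesis partners 25 fell from 72 h to 180 h and 0 rose (0 also at an unadjusted p below 0.05). Among all genes tested 33.5% were lower and 15.8% higher. The median log2 change of these partners was -2.43, beside -2.39 for the mitotic kinesins and -0.10 for all genes. They included Prc1, the bundler that Kif4a works with (156 ± 13.5 to 21.2 ± 4.23 FPKM, -2.84 ± 0.14), and Racgap1, the partner of Kif23 in centralspindlin (94.0 ± 8.88 to 17.3 ± 2.65 FPKM, -2.38 ± 0.12). Aurkb, the passenger complex kinase that Kif20a relocates, went from 33.3 ± 1.60 to 4.30 ± 1.18 FPKM (-2.72 ± 0.12). Tpx2, a spindle assembly factor, went from 146 ± 15.3 to 26.0 ± 5.11 FPKM (-2.46 ± 0.14). The 1 member that did not pass was Numa1, which tethers spindle poles (0.20 ± 0.25, adjusted p = 0.515).

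Of 9 measured kinesin genes with other symbols, 3 fell and 1 rose, Kifc2 included. These shares are no higher than the 33.5% lower and 15.8% higher among all genes tested. The centromere kinesin Cenpe went from 41.0 ± 2.66 to 8.58 ± 1.36 FPKM (-2.14 ± 0.16, adjusted p = 2.46e-13), and the minus-end spindle motor Kifc1 from 13 ± 4.41 to 5.45 ± 1.96 FPKM (-1.11 ± 0.40, adjusted p = 0.0225). Kifbp, a kinesin-binding protein that blocks some motors, fell by 0.38 on the log2 scale. Kifc2 went from 0.492 ± 0.087 to 1.66 ± 0.58 FPKM (0.81 ± 0.19). Its mean lay below the filter of 1 FPKM at 72 h and 108 h (0.748 FPKM) and above it at 144 h (1.63 FPKM). Since Kifc2 met the filter through times at which it was high, its rise is a description that supports no count. The light chain Klc1, which links Kif5 heavy chains to cargo, was at 63.8 ± 4.68 and 67.3 ± 4.74 FPKM (0.08 ± 0.08, adjusted p = 0.459), and Kifap3, which links the Kif3 pairs to cargo, at 22.3 ± 2.63 and 22.4 ± 3.02 FPKM (0.005 ± 0.133). The change of Klc1 did not pass, while the Kif5b heavy chain fell. The light chains Klc2 (0.40 ± 0.30, adjusted p = 0.281) and Klc4 (0.82 ± 0.37, adjusted p = 0.0671) did not pass either. Nor did Kifap3.

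The opposing motor and the track were measured as well. Of 20 dynein and dynactin genes 7 fell and 2 rose (median -0.06), a share near the background in the falls. Nde1, a dynein regulator also used in mitosis, fell from 60.8 ± 5.25 to 18.9 ± 1.00 FPKM (-1.63 ± 0.09), while the dynein heavy chain Dync1h1 was at 32.0 ± 9.33 and 30.7 ± 5.10 FPKM (-0.03 ± 0.21, adjusted p = 0.923). Of 15 cargo adaptors 4 rose and 4 fell (median 0.12), against 15.8% of all genes higher and 33.5% lower. Mapk8ip1, a scaffold that joins kinesin-1 to cargo, rose from 5.09 ± 1.45 to 15.2 ± 3.82 FPKM (1.41 ± 0.23), and Arl8a, which recruits kinesins to lysosomes, from 22.5 ± 2.90 to 45.1 ± 5.94 FPKM (0.97 ± 0.25). Spag9, another scaffold, fell from 55.1 ± 3.35 to 35.0 ± 3.87 FPKM (-0.64 ± 0.12), and Rhot1, which ties mitochondria to kinesin, from 18.5 ± 2.32 to 12.5 ± 1.46 FPKM (-0.53 ± 0.15). Of 6 measured tubulins 2 fell and 0 rose (0 also at an unadjusted p below 0.05), a share of falls like the 33.5% of all genes. These were Tuba1c from 739 ± 8.04 to 308 ± 33.4 FPKM (-1.27 ± 0.13) and Tuba1b from 630 ± 91.6 to 293 ± 36.3 FPKM (-1.10 ± 0.21), near-identical genes whose reads may be shared.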

How the data were processed

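Per the file headers and labels, each of 40 files holds FPKM that the authors computed for 1 library, keyed by NCBI gene ID; FastQC, Trimmomatic 0.32, SAMtools 1.0 and Cufflinks 2.2.1 are named in the submitters' processing notes. For the aligner, build, annotation and strand setting, the entry is: not given in the sources used here. Each file has 27868 lines, and 23 of these lack a gene ID and are at 0. FPKM were summed over lines of an ID. Of 26793 IDs, 23196 matched a RefSeq table of CriGri-PICRH-1.0, which served only for naming. Kinesins without a Kif symbol and digit there were not analysed here as members, and no sequence was used, so promoter letters were not examined.

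Genes with at least 1 FPKM in 4 libraries (12259) entered limma 3.58.1 (R 4.3.3) on the log2(FPKM + 1) scale, with a mean per time, trended and robust moderation, 30 residual degrees of freedom and two-sided Benjamini-Hochberg adjusted p-values over all genes. Fold changes on this scale understate changes of low genes. The fit was also run on simulated data with independent noise for each gene. These lack the axis shared within times, so they cannot show how the fit behaves under it. The members and lists were chosen with earlier results of these data known. By rule, all members were described, with every 72 h and 180 h library for the 5 highest of each class and for its largest rise and fall. Over pairs of times, deviations of libraries with the same replicate number correlated between r = -0.779 and 0.769 (72 h and 180 h, -0.45 to -0.12). No pairing was taken from the numbers, since not every pair deviated together.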

Additional observations from a re-analysis of the deposited data

Results flagged for a closer look

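A library stood apart from the other 3 of its time, by Dixon's criterion, in 12 of 230 groups of 4 values. Among independent groups about 1 in 20 would be flagged by chance. These groups come from the same 40 libraries and share the axis within times, so that rate cannot be applied to them. Whether the number of flags exceeds chance was not tested.

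Among mitotic kinesins these were Kif22 in replicate 1 of 108 h (27.8 FPKM, the others 30.1 to 30.3 FPKM), Kif15 in replicate 2 of 72 h (47.0 FPKM, the others 43.6 to 43.9 FPKM) and Kif18a in replicate 1 of 96 h (10.3 FPKM, the others 6.46 to 6.78 FPKM). Among transport kinesins Kif5b was high in replicate 1 of 168 h (62.8 FPKM, the others 51.1 to 52.0 FPKM), Kif1c low in replicate 4 of 156 h (31.0 FPKM, the others 42.2 to 42.4 FPKM) and Kif3c low in replicate 1 of 96 h (5.00 FPKM, the others 7.76 to 8.15 FPKM). Kif3a was high in replicate 1 of 144 h (6.97 FPKM, the others 5.67 to 5.80 FPKM) and Kif13b low in replicate 4 of 108 h (2.81 FPKM, the others 4.13 to 4.4 FPKM).

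Of the remaining kinesins, Kif21a was high in replicate 4 of 84 h (53.8 FPKM, the others 34.2 to 37.2 FPKM), Kif7 low in replicate 1 of 168 h (1.83 FPKM, the others 3.71 to 4.02 FPKM) and Kif24 high in replicate 4 of 72 h (1.94 FPKM, the others 1.49 to 1.53 FPKM). The ratio of summed mitotic to transport kinesins was low in replicate 2 of 120 h (0.994, the others 1.10 to 1.12). The libraries of 84 h and 96 h named here are the same 2 that lay farthest out on the axis within times.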

How the results depend on the processing

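The fall of all 10 mitotic kinesins from 72 h to 180 h held in every alternative run, and no kinesin's change in that comparison reversed. Of the values of single kinesins under alternatives, 413 kept their side of the threshold, 19 lost it (Kif7, Kif3c and Kif13a) and 6 gained it (Kif3a and Kif3b). With the replicate number as a block, 10 mitotic members were again lower from 72 h to 180 h, and the block changed no call of the kinesins counted here. A block assumes that a number deviates the same way at each time, and along the axis within times replicates 1 and 4 changed sign from each time to the next.

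Leaving out replicates gave 5 to 9 transport and other members over all times (main 9), and for mitotic members lower from 144 h to 180 h 2 to 8 (main 6). From 72 h to 180 h it gave 1 to 2 transport members lower and 0 to 1 other members higher. For the 12 transport and other members, it gave 0 to 2 higher and 1 to 3 lower from 72 h to 108 h, and 0 to 2 higher and 0 to 2 lower from 108 h to 144 h. With array weights 10 mitotic members were lower from 144 h to 180 h, 4 of the 12 were higher and 4 lower from 72 h to 108 h, and 2 higher and 3 lower from 108 h to 144 h. In fits of the 2 times alone, 2 mitotic members were lower from 144 h to 180 h, 1 transport member was lower from 72 h to 180 h, and 3 and 0 of the 12 were lower in the first and second windows. Without replicate 4 of 84 h and replicate 1 of 96 h, 2 were higher and 3 lower in the first window and 1 higher in the second. Median-ratio scaling left 1 transport member lower (Kif5b) and made 1 higher in the second window (Kif16b). A filter of 5 FPKM removed Kif7 and Kif24 by construction, which left 0 other members higher and 1 lower from 72 h to 180 h, and 0 lower in the first 2 windows. The ratio of class sums without Kif2c and Kif5b was 4.62 at 72 h and 0.560 at 180 h. The cause of these differences was not tested except where stated. Without counts, precision at low FPKM is unknown.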
